A study of Mus musculus with 12 samples.

Results

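The apolipoprotein L genes encode a family of proteins with amphipathic and membrane-inserting segments, and in the mouse most of them lie side by side on chromosome 15. The 9 genes described here, Apol11a, Apol11b, Apol8, Apol10b, Apol9a, Apol9b, Apol7c, Apol7e and Apol6, were found by symbol among the 24421 entries of a table of bone marrow gene expression, and all 9 had an entry. The family was taken up because Apol11a and Apol11b stood among the larger falls after brain injury in young mice, so the members were selected on measured values of the comparison of Young-TBI with Young-CON. For that comparison, and for the interaction that contains it, the values below are a description and carry no test.

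The study asked how marrow of young and aged mice responds to traumatic brain injury (TBI). Its 12 samples were bone marrow of C57BL/6 mice in 4 groups of 3. Young-CON were young mice and Aged-CON aged mice, both without injury. Young-TBI and Aged-TBI were young and aged mice with traumatic brain injury, whose marrow was taken 3 days after it. The labels give neither the ages in weeks or months, nor the way the injury was made, nor whether controls had a sham operation. Nor do they say that each sample is a mouse of its own. The p-values therefore speak only of the spread among these 12 samples, and part of that spread may be technical.

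Apolipoproteins L share a name with the lipoprotein proteins of plasma, but most of them work inside cells, at membranes. In humans, APOL1 is secreted, travels on high-density lipoprotein and lyses trypanosomes, APOL3 is an interferon-induced protein that acts on the membranes of bacteria in the cytosol, and APOL6 has been tied to cell death. The mouse has no counterpart of APOL1 and carries its own expanded set, in which Apol9a and Apol9b are near-identical interferon-induced genes whose products bind phosphatidylethanolamine. Apol7c is known from mouse dendritic cells, where its product acts on the membrane of phagosomes. No role is given here for Apol11a, Apol11b, Apol8, Apol10b and Apol7e.

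Levels are given as FPKM, fragments scaled to the length of the gene and to the mapped fragments of the sample, a unit that allows levels to be compared between genes. The recovered depth was 12.3 to 15.9 M fragments a sample. Markers of marrow cells were present: 11 neutrophil, 13 B cell and 8 erythroid marker genes of the table were above 0 in each of the 12 samples. A pair of control libraries stood apart in their group by the erythroid markers. The mean log2(FPKM + 1) of the 8 genes was 6.89 in Young-CON 2 against 7.92 and 7.71 in the other Young-CON samples, and 8.04 in Aged-CON 1 against 7.25 and 7.11 in the other Aged-CON samples. Values without these libraries are given where a result rests on them.

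The sequences upstream of the genes are shown because both Apol11 genes, which the results turn on, share theirs. In GENCODE M21 on GRCm38, Apol11a lies on chromosome 15 from 77508271 to 77518051 on the plus strand. Apol11b lies from 77633946 to 77643286 on the minus strand, and Apol8 from 77747798 to 77757003 on the minus strand. The family without Apol6 spans 353 kb, from Apol9a to Apol8, and Apol6 ends 347 kb before Apol9a. Of the 250 bases upstream of the RefSeq start, all 250 were identical between Apol11a and Apol11b, and 218 of 245 aligned bases were identical between either of them and Apol10a, a family gene that is no member. The stretches below are the 120 bases next to the start, outside the annotated transcripts, read 5′ to 3′ on the strand of the gene from RefSeq sequence of build GRCm38.p6. They show the identical starts of the Apol11 genes and the like start of Apol10a, beside Apol7c and Apol8 as different starts of the same cluster. Capitals mark the letters AANNGAAA on either strand, the core of sites bound by interferon regulatory factors.
Apol11a: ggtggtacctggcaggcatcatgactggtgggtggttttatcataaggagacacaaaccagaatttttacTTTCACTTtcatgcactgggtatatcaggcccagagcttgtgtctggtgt
Apol11b: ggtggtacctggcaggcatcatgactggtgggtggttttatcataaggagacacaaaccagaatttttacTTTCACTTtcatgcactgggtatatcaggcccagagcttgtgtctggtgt
Apol10a: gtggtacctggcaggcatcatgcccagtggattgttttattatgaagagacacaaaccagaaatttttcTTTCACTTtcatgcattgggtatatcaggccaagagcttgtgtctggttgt
Apol7c: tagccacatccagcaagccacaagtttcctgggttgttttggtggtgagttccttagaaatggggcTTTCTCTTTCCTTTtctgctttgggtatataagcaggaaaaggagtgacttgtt
Apol8: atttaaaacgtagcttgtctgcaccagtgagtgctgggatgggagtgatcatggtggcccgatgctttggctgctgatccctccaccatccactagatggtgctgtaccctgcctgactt

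The stretches were taken from chromosome 15 at 77508149 to 77508268 (plus strand, Apol11a), 77643287 to 77643406 (minus strand, Apol11b), 77476927 to 77477046 (plus strand, Apol10a), 77533317 to 77533436 (minus strand, Apol7c) and 77757011 to 77757130 (minus strand, Apol8). Over the 250 upstream bases, AANNGAAA was present in 6 of the 8 members with a promoter sequence, the exceptions being Apol8 and Apol10b, and in 21.3% of 32851 mouse promoters. Those 6 members are pairs with like upstream bases, so they are not separate cases. Besides the Apol11 pair, 228 of 228 aligned bases were identical between Apol9a and Apol9b, and 203 of 217 between Apol7c and Apol7e. The letters TTCNNNGAA, the core of gamma-activated sites, were present in 2 of the 8, Apol11a and Apol11b, and in 7.02% of all promoters. AGATAA, the core of sites for GATA factors, was present in none of the 8 and in 9.99% of all promoters. A match in these letters is a description of the sequence and not a measured site, and the motifs and the stretches shown were chosen after expression values had been seen.

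**Figure D1:**
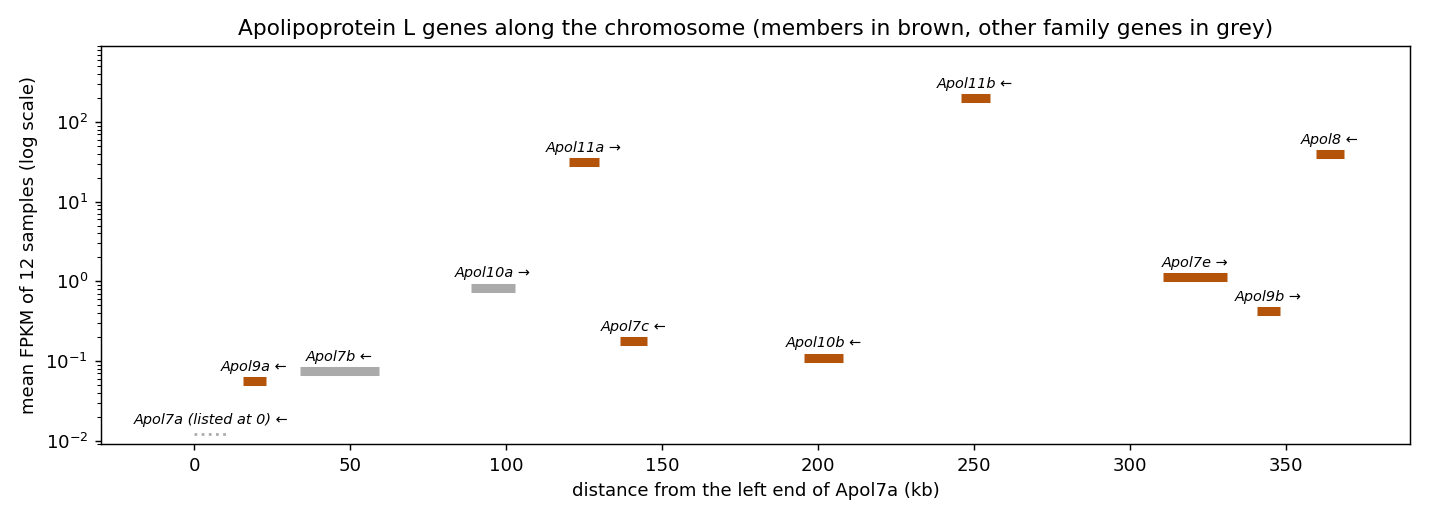
Mean FPKM of 12 samples (vertical log axis) against the distance in kb from the left end of Apol7a for the apolipoprotein L genes of the cluster, with arrows for the strand and the length of each bar for the gene's span. Apol11b at 197, Apol8 at 39.3 and Apol11a at 31.5 FPKM stand above all the other family genes drawn, and Apol7a was listed at 0 in every sample.

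Of the family, 3 members made up nearly all of the signal. Averaged over the 12 samples, Apol11b had 197 FPKM, Apol8 39.3 FPKM and Apol11a 31.5 FPKM, which were 73.1%, 14.6% and 11.7% of the summed level of the 9 members. Apol7e followed at 1.12 FPKM. The remaining 5 members were each under 1 FPKM in every sample, with means of 0.419 FPKM for Apol9b, 0.176 for Apol7c, 0.110 for Apol10b, 0.0554 for Apol9a and 0.0160 for Apol6. Both Apol11 genes and Apol8 were the 3 members at 1 FPKM or more in all 12 samples.

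Apol8 and Apol11a were next to each other in that order and did not keep it in every sample. Apol11a was above Apol8 in Young-CON 2, Aged-CON 2 and Aged-CON 3, where the ratio of Apol11a to Apol8 was 1.38, 3.38 and 1.76, and below it in the other samples. The ratio of Apol11b to Apol11a stayed above 1 in each sample, from 3.66 to 14.96. The length that the deposited FPKM imply for Apol11a was 1132 bases, against 1864 exonic bases in GENCODE M21. With the exonic length the mean would be 19.1 FPKM for Apol11a, 165 for Apol11b (2057 bases implied, 2463 exonic) and 24.4 for Apol8 (1838 implied, 2962 exonic), with the same order of the 3.

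Apol11b was the most abundant member. Its level was 253, 168 and 142 FPKM in Young-CON and 56.8, 83.9 and 61.7 in Young-TBI, against 219, 338 and 185 in Aged-CON and 272, 303 and 284 in Aged-TBI. The 3 Young-TBI samples were the lowest of the 12 and did not overlap with any other group, and the 3 Aged-TBI samples lay within the range of Aged-CON. The group means were 286 ± 15.9 FPKM in Aged-TBI, 247 ± 79.9 in Aged-CON, 188 ± 58.4 in Young-CON and 67.5 ± 14.5 in Young-TBI (SD, n = 3 each).

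Apol11a, whose transcript is 94.95% identical to that of Apol11b over 1843 aligned bases, had the same group at the bottom. Its level was 23.8, 28.1 and 16.3 FPKM in Young-CON and 3.79, 10.2 and 8.13 in Young-TBI, against 27.4, 92.2 and 45.3 in Aged-CON and 37.3, 41.4 and 44.5 in Aged-TBI. The highest value of all was that of Aged-CON 2, and the Aged-CON group had a wide spread, 55.0 ± 33.5 FPKM (SD, n = 3). The other means were 41.1 ± 3.64 FPKM in Aged-TBI, 22.7 ± 6.00 in Young-CON and 7.36 ± 3.25 in Young-TBI (SD, n = 3 each).

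Of the windows of 50 bases along each transcript, 18.02% of those of Apol11a and 16.5% of those of Apol11b also occurred in transcripts of other genes, mostly each other, Apol10a or Apol10b. How the authors' counting divided fragments from such stretches is not given in the sources used here, so single values of Apol11a are uncertain by the fragments that Apol11b, with 68508 recovered fragments against 6013, could lend it. The sum of their FPKM lessens that dependence but does not remove it. A fragment adds more FPKM to Apol11a, with an implied length of 1132 bases, than to Apol11b, with 2057. The summed FPKM was 327 ± 17.8 in Aged-TBI and 302 ± 111 in Aged-CON, and among the young 210 ± 60.9 in Young-CON and 74.8 ± 17.3 in Young-TBI (SD, n = 3 each). Their summed fragments, which do not depend on the division between them, were 25844 in Aged-TBI and 25314 in Aged-CON. They were 17251 in Young-CON and 6112 in Young-TBI, not scaled to depth. Across the 12 samples the log2 values of the pair had a Pearson r of 0.929, a description of 12 points in 4 groups that share libraries and, in part, sequence.

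**Figure D2:**
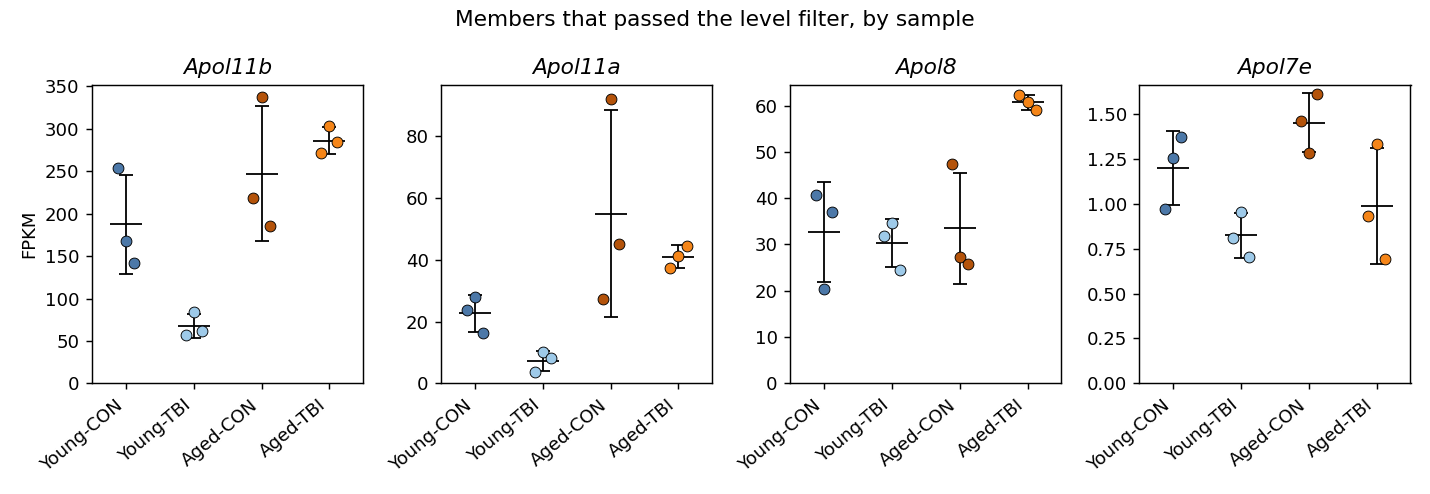
FPKM (vertical axis from 0) of the 4 members that passed the level filter in each of the 12 samples, with dots for samples and horizontal lines with bars for the group mean and SD (n = 3). The Young-TBI dots are the lowest for Apol11b (56.8 to 83.9 FPKM) and Apol11a (3.79 to 10.2), and the Aged-TBI dots are the highest for Apol8 (59.1 to 62.3).

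Tests were run with limma on log2(FPKM + 1) for the 11767 genes that reached 1 FPKM in 3 samples or more, with Benjamini-Hochberg adjustment over all of them and a call at an adjusted p under 0.05. Fold changes of genes at low levels are understated on this scale. Apol11b, Apol11a, Apol8 and Apol7e passed this filter and the other 5 members did not. Apol7e passed with 6 samples at 1 FPKM or more, among them all 3 of Aged-CON.

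Injury in young mice, the comparison that drew attention to the family, showed Apol11b and Apol11a lower by the group means, 2.78-fold and 3.09-fold. On the log2(FPKM + 1) scale the difference of Young-TBI from Young-CON was -1.44 (SE 0.24) for Apol11b and -1.56 (SE 0.39) for Apol11a. Apol8 (-0.06, SE 0.26) and Apol7e (-0.27, SE 0.14) were closer to 0. Over all genes tested, 5.15% were called in this comparison, and 27.9% of genes had no overlap between Young-TBI and Young-CON. The same held for 3 of the 4 members tested, Apol11a, Apol11b and Apol7e, all with Young-TBI lower. These are the values that chose the members, so nothing is read from them. In the same comparison 11 of 13 B cell markers fell, with a median of -1.11 and a summed level of 476 to 691 FPKM in Young-TBI against 1030 to 1421 in Young-CON, none of them listed at 0. Of 10 T and natural killer cell markers 6 fell and 1 rose, with a median of -0.70 and a summed level of 129 to 135 FPKM in Young-TBI and 128 to 137 in Young-CON. The part of these cells in the lower Apol11 values was not tested.

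Injury in aged mice shares no sample with that comparison, and here neither Apol11 gene passed the test. The difference of Aged-TBI from Aged-CON was 0.26 for Apol11b (SE 0.24, 95% interval -0.27 to 0.78, limma adjusted p = 0.540), with the 3 injured samples inside the range of the controls. For Apol11a it was -0.24 (SE 0.39, interval -1.10 to 0.62, limma adjusted p = 0.743), and for their sum 0.17 (interval -0.37 to 0.72, limma adjusted p = 0.709). The sign for Apol11a rested on 1 library: without Aged-CON 2, the difference was 0.21.

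Apol8 had the largest difference of the 4 members tested after injury in aged mice, without reaching the threshold. Its level was 40.7, 20.4 and 37.0 FPKM in Young-CON and 31.8, 34.5 and 24.6 in Young-TBI, against 47.4, 27.3 and 25.8 in Aged-CON and 62.3, 60.9 and 59.1 in Aged-TBI. All 3 Aged-TBI samples were above the 9 others. The group means were 60.7 ± 1.61 FPKM in Aged-TBI, 33.5 ± 12.04 in Aged-CON, 32.7 ± 10.8 in Young-CON and 30.3 ± 5.16 in Young-TBI (SD, n = 3 each), and the last 3 overlapped one another.

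For Apol8 the difference of Aged-TBI from Aged-CON was 0.89 (SE 0.26, interval 0.33 to 1.46), with an unadjusted p of 0.00494 and an adjusted p of 0.113 in limma. Leaving out Aged-CON 1 raised it to 1.16 with an adjusted p of 0.00660 (limma), so 1 library decided the call. Without both Aged-CON 1 and Young-CON 2 the adjusted p was 0.000212 (limma). In the same comparison the share of all genes called rose from 0.323% to 27.7% without Aged-CON 1 and to 30% without both. Apol7e had a difference of -0.31 (SE 0.14, limma adjusted p = 0.196). None of the 4 members tested was called in this comparison, in which 0.323% of all genes were. Aged-TBI and Aged-CON were separate for 1 of the 4, Apol8, and for 22.2% of all genes tested.

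Age without injury gave no call among the 4 members, where 4.98% of all genes tested were called. Young-CON also enters the comparison on which the family was chosen. The difference of Aged-CON from Young-CON was 1.10 for Apol11a (SE 0.39, interval 0.24 to 1.96, limma adjusted p = 0.151) and 0.39 for Apol11b (SE 0.24, interval -0.13 to 0.91, limma adjusted p = 0.407). Aged-CON 1, at 27.4 FPKM of Apol11a, lay inside the Young-CON range, and without it the difference for Apol11a was 1.503 with an adjusted p of 0.0225 (limma). Apol8 (0.04) and Apol7e (0.16) had adjusted p-values of 0.962 and 0.590 in limma. Without both Aged-CON 1 and Young-CON 2, Apol8 turned to -0.53 (limma adjusted p = 0.0170) and Apol11a stood at 1.67 (0.0157). The share of all genes called in this comparison was 14.2% without Aged-CON 1 and 23.2% without both. With all samples, Aged-CON and Young-CON overlapped for each of the 4 members tested and were separate for 20.4% of all genes.

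Age after injury gave 3 calls among the 4 members tested, with Apol11b, Apol11a and Apol8 higher in Aged-TBI than in Young-TBI. Over all genes tested, 9.9% were called in this comparison. The Young-TBI samples also enter the comparison that chose the family, and their low Apol11 values are part of that choice, so the calls of the Apol11 genes are not independent of it. Apol11b was 4.24-fold higher by the group means, with a log2 difference of 2.09 (SE 0.24, interval 1.57 to 2.61, limma adjusted p = 0.000804). Apol11a was 5.58-fold higher, with a log2 difference of 2.41 (SE 0.39, interval 1.56 to 3.27, limma adjusted p = 0.00526). Their sum differed by 2.14 (SE 0.25, limma adjusted p = 0.000880).

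Apol8 was 2.003-fold higher in Aged-TBI than in Young-TBI, with a log2 difference of 0.99 (SE 0.26, interval 0.43 to 1.56, limma adjusted p = 0.0347). That call was lost without any one of the 3 Young-TBI or the 3 Aged-TBI libraries, with limma adjusted p-values of 0.0535 to 0.141 and differences of 0.85 to 1.09. It was also lost with no low-value filter, at a limma adjusted p of 0.0647. The share of all genes called fell too. It was 2.67% to 6.16% without any one of those libraries and 4.93% with no filter, against 9.9%. Apol7e differed by 0.11 (SE 0.14, limma adjusted p = 0.645). Aged-TBI and Young-TBI were separate for 3 of the 4 members tested, Apol11b, Apol11a and Apol8, and for 40% of all genes.

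The interaction, the injury effect in aged mice minus that in young mice, is a description for the same reason as the young comparison. It was 1.70 for Apol11b, 1.31 for Apol11a, 0.95 for Apol8 and -0.05 for Apol7e on the log2 scale. Over all genes tested, 0.195% were called for the interaction.

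**Figure D3:**
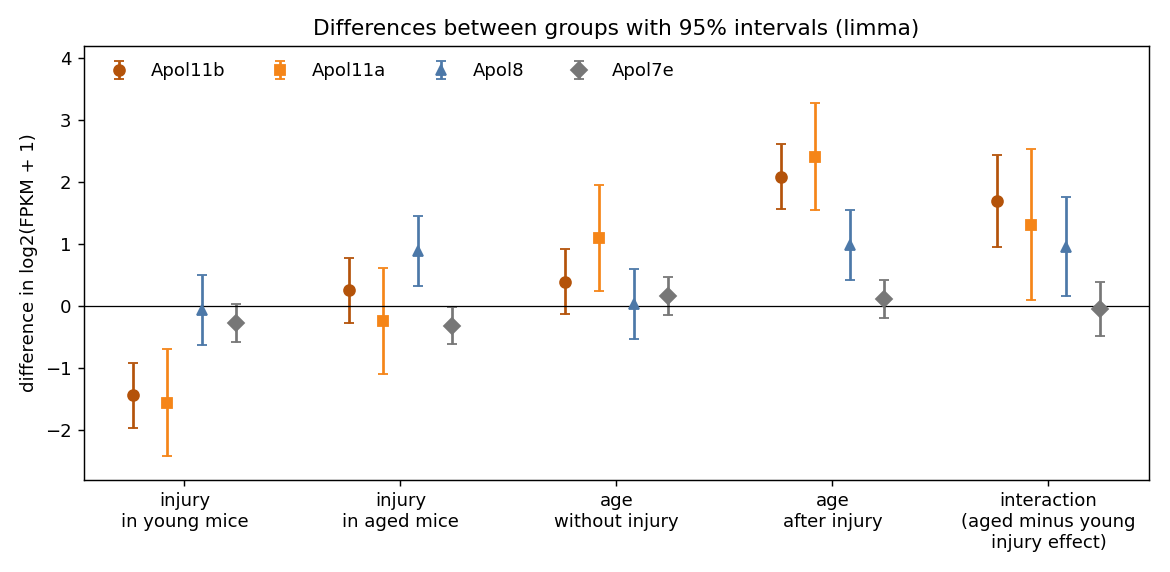
Differences in log2(FPKM + 1) between groups for the 4 members tested, with 95% intervals from the limma fit of 12 samples, for 4 comparisons and the interaction (aged minus young injury effect). The members were chosen on the comparison of injury in young mice. The intervals for it and for the interaction are therefore a description and not a test. The Apol11 genes lie below 0 for injury in young mice (-1.44 and -1.56) and above 2 for age after injury (2.09 and 2.41), and Apol8 lies near 0.9 to 1 wherever Aged-TBI is compared.

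Apol8 followed the markers of red cell precursors from sample to sample. Erythroid markers were set as a list of 10 genes, of which 8 were found by symbol. Epb42 of the list was missed, as its entry carries the older symbol Epb4.2. The mean log2(FPKM + 1) of the 8 ran from 6.89 in Young-CON 2 to 8.35 in Aged-TBI 2. Apol8 minus that mean lay between -2.54 and -2.22 in all 12 samples, with an SD of 0.083, where Apol8 alone had an SD of 0.53. The Pearson r of Apol8 with the single erythroid markers had a median of 0.984 (0.920 to 0.991), over 12 samples that share their libraries with the markers. For Apol11b and Apol11a, r with the erythroid mean was 0.47 and 0.19.

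The erythroid list itself was higher in Aged-TBI. The summed level of the 8 genes was 3469 to 3689 FPKM in Aged-TBI, 1594 to 3069 in Aged-CON, 1523 to 2182 in Young-TBI and 1335 to 2842 in Young-CON. The median log2 difference of the list was 0.82 for injury in aged mice (none of 8 called) and 0.88 for age after injury (1 of 8 called, as higher). The medians over all genes tested were -0.02 and -0.05. With the erythroid mean as a covariate in limma, the difference of Apol8 for age after injury was 0.16 with an adjusted p of 0.285. Apol8 had an r of 0.989 with that mean, so the covariate takes up its difference whatever the origin. Nothing is read from this fit for Apol8. In it 1.12% of all genes were called for age after injury, against 9.9% without the covariate. In marrow, fewer cells of a type and less RNA per cell cannot be told apart.

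**Figure D4:**
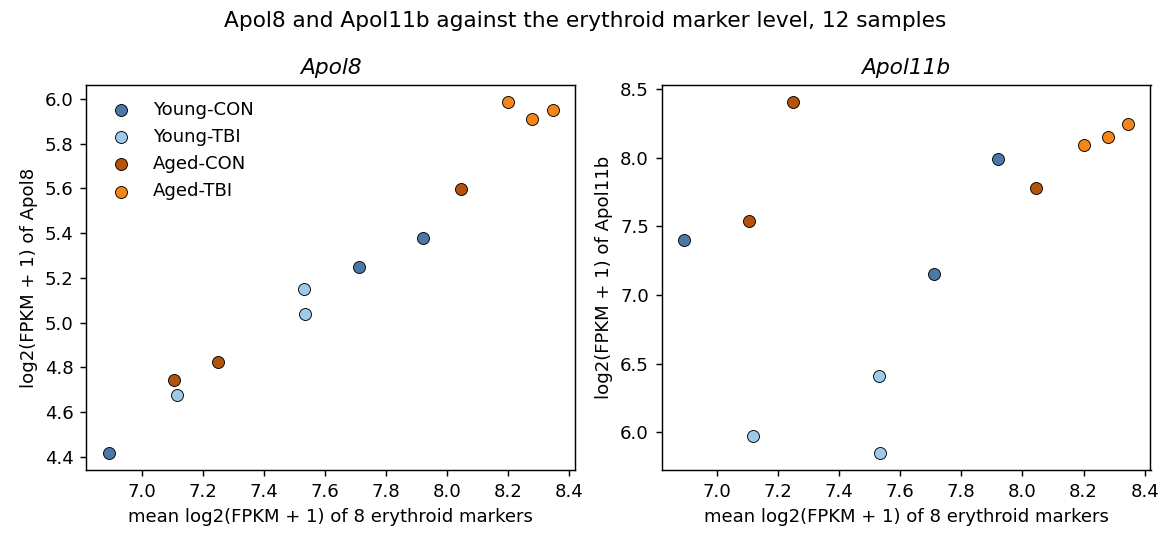
Log2(FPKM + 1) of Apol8 (left) and Apol11b (right) against the mean log2(FPKM + 1) of 8 erythroid markers, with 1 dot per sample coloured by group. The Apol8 dots follow a line with the 3 Aged-TBI samples at its upper end (5.91 to 5.98 for Apol8), while the Young-TBI dots of Apol11b lie below the others at a similar erythroid level.

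The genes most like Apol8, of 8306 with a mean of at least 5 FPKM, were Slc43a1 (r = 0.993), an amino acid transporter, and Epb4.2 (0.993), the red cell membrane protein 4.2. Epb4.2 was meant for the erythroid list, as Epb42, but is not in the erythroid mean. The most like Apol11a were Grina (0.941), Fcer1a (0.915), the alpha chain of the high-affinity IgE receptor, and Basp1 (0.898). The most like Apol11b were Ubap1 (0.906), a subunit of the ESCRT-I sorting complex, Gcnt1 (0.901), a glycosyltransferase of O-glycans, and Zcchc6 (0.900), a terminal uridylyltransferase. For the summed Apol11 genes they were Grina (0.903), Fcer1a (0.902) and Gcnt1 (0.901). These are the highest of 8306 values over 12 samples in 4 groups.

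Other cell type markers also differed between the injured groups. Of 13 B cell markers, 10 were lower in Aged-TBI than in Young-TBI, with a median of -1.12, and their summed level was 387 to 460 FPKM in Aged-TBI and 476 to 691 in Young-TBI. None of the 13 was listed at 0. The summed level of 11 monocyte and macrophage markers was 1089 to 1160 FPKM in Aged-TBI and 1528 to 1712 in Young-TBI, with 2 of 11 called, Ly6c2 at -0.62 and Adgre1 at -0.39 (limma adjusted p = 0.00770 and 0.0357). Of 11 neutrophil markers 2 were lower, the granule genes Mpo and Elane, and of 10 T and natural killer cell markers 2 were higher, Cd3g and Cd8a, and 1 lower, Cd4. None of 6 megakaryocyte markers was called, but all 6 were lower, with a median of -0.81 (-2.02 to -0.53). Their summed level was 61.2 to 285 FPKM in Aged-TBI and 249 to 415 in Young-TBI. The part of these cell types in the Apol11 differences was not tested. With the erythroid mean as a covariate in limma, the differences for age after injury were 1.95 (adjusted p = 0.0275) for Apol11b and 3.10 (adjusted p = 0.0158) for Apol11a. In that fit 1.12% of all genes were called for age after injury. The erythroid mean was 8.20 to 8.35 in Aged-TBI and 7.12 to 7.53 in Young-TBI. The fit therefore compares these groups at an erythroid level that they did not share. It also draws on the Young-TBI values that led to the choice of the family. Nothing is read from it for the Apol11 genes.

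Genes of the interferon response were listed beside the family because several apolipoprotein L genes answer to interferon. The list also holds interferon receptors and transcription factors, so not all of its genes are interferon-induced. Of the 46 listed genes, all of them tested, 14 were lower and none higher in Aged-TBI than in Young-TBI, with a median of -0.63, where Apol11a and Apol11b were higher. Over all genes tested, 9.9% were called there in either direction. The 3 with the smallest adjusted p were Cxcl10, a chemokine, at -1.34 (limma adjusted p = 0.00234), Mx1, an antiviral GTPase, at -1.10 (0.00889), and Stat2, a signal transducer of the interferon receptors, at -0.55 (0.0109). For injury in aged mice 2 of 46 were lower, the helicase-like Ddx60 at -1.21 (limma adjusted p = 0.0308) and the transcription factor Irf1 at -0.67 (0.0449), with a list median of -0.69. The share of all genes called there was 0.323%.

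For injury in young mice, 1 of the 46 was higher, Cxcl10 at 0.96, and 1 lower, Irf2 at -0.26, with limma adjusted p-values of 0.0140 and 0.0463 and a list median of -0.17. For age without injury 1 was lower, the transcription factor Irf8 at -0.47 (limma adjusted p = 0.00125), with a list median of -0.04. In these comparisons 5.15% and 4.98% of all genes tested were called, so nothing is read from these counts. The medians over all genes tested were -0.02 and -0.05. The median r of the list's 42 more abundant genes was -0.11 with Apol11a, -0.15 with Apol11b and -0.59 with Apol8, as a description over 12 samples.

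The interferon-induced pair of the family was hardly detected. Apol9b had 15, 11 and 3 recovered fragments in Young-CON and 9, 12 and 14 in Young-TBI, against 10, 8 and 0 in Aged-CON and 11, 13 and 6 in Aged-TBI. Its FPKM reached at most 0.626. Young-TBI (0.425 to 0.626) lay above Aged-CON (0 to 0.400), and all other pairs of groups overlapped. That pair differs in both age and injury, and nothing is read from it at these counts. Apol9a had 1, 1 and 2 fragments in Young-CON and 1, 0 and 1 in Young-TBI, against 0, 4 and 0 in Aged-CON and 0, 1 and 3 in Aged-TBI.

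The transcripts of the pair are 98.4% identical over 1475 bases, and 57.5% of the 50-base windows of Apol9a recur in Apol9b, so their values are best read as a sum. That sum was 0.522 ± 0.067 FPKM in Aged-TBI and 0.318 ± 0.286 in Aged-CON, and 0.498 ± 0.230 in Young-CON and 0.559 ± 0.102 in Young-TBI (SD, n = 3 each), with overlap between groups of the same age. The genes most like this sum were Dad1 (r = 0.850), Rpp25l (0.808) and Mecr (0.795), from at most 16 fragments a sample, from which nothing is read.

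The Apol7 members were low as well. Apol7e had 0.972, 1.25 and 1.37 FPKM in Young-CON and 0.812, 0.956 and 0.704 in Young-TBI, against 1.46, 1.28 and 1.61 in Aged-CON and 0.933, 1.33 and 0.693 in Aged-TBI. Young-TBI lay below Young-CON without overlap, and the 2 aged groups overlapped through Aged-TBI 2. These levels rest on 19 to 57 fragments a sample, and 78.5% of the 50-base windows of Apol7e recur in other genes, mainly Apol7b. The genes most like Apol7e were H2-Aa (r = 0.867), a chain of MHC class II, Pja2 (0.866), a ubiquitin ligase, and Zeb1 (0.853), a transcription factor.

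Apol7c, the dendritic cell gene, had 2, 6 and 2 fragments in Young-CON and 5, 3 and 8 in Young-TBI, against 8, 5 and 9 in Aged-CON and 4, 6 and 3 in Aged-TBI, with overlap between every pair of groups. Apol10b had 1, 2 and 1 fragments in Young-CON and 5, 2 and 0 in Young-TBI, against 4, 1 and 7 in Aged-CON and 6, 4 and 4 in Aged-TBI. Summed over a group, that was 4, 7, 12 and 14 fragments in the same order of groups. The Aged-TBI values of Apol10b (0.136 to 0.224 FPKM) lay above those of Young-CON (0.0330 to 0.0803). Nothing is read from this at these counts. Apol6 was the lowest member, with 0, 1 and 2 fragments in Young-CON and 2, 0 and 0 in Young-TBI, against 0, 0 and 1 in Aged-CON and 0, 3 and 0 in Aged-TBI. A count of 0 for Apol6 allows up to 3 fragments, which is 0.0570 to 0.0725 FPKM in the 7 samples without one, for counting error only. At this depth these 5 members were not tested between groups.

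**Figure D5:**
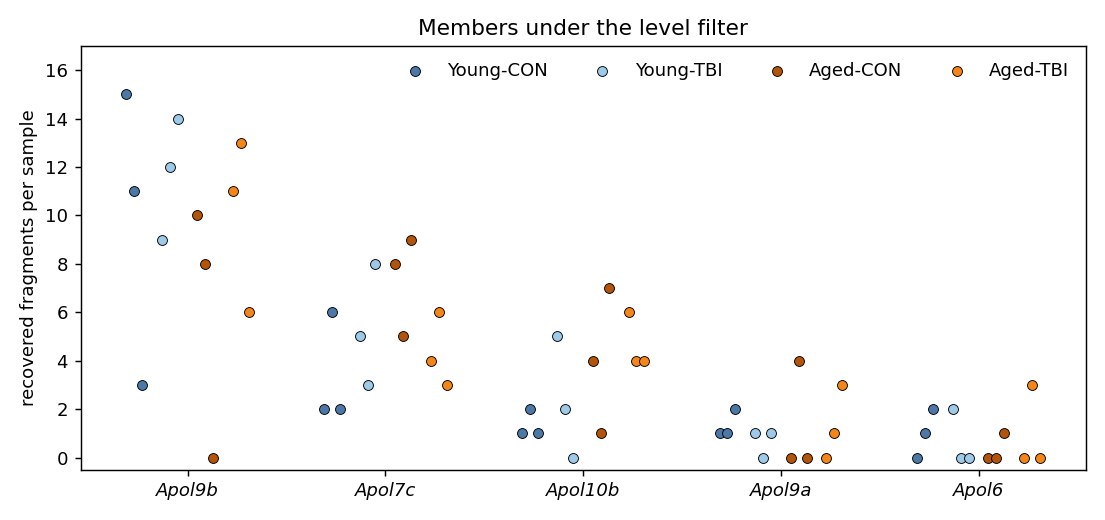
Recovered fragments per sample (vertical axis) of the 5 members under the level filter, with 1 dot per sample coloured by group. No member exceeds 15 fragments in a sample, and Apol6 has 0 fragments in 7 of 12 samples.

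Of the other family genes, 8 were listed, 5 had an entry and 2 were tested. Apol10a, whose upstream bases are like those of the Apol11 genes, had 0.476, 0.473 and 0.467 FPKM in Young-CON and 0.149, 0.187 and 0.165 in Young-TBI, against 0.358, 2.68 and 1.51 in Aged-CON and 0.978, 1.25 and 1.28 in Aged-TBI. These values rest on 6 to 111 fragments a sample. The lowest group and the highest sample of Apol10a were those of Apol11a. The difference of Aged-TBI from Young-TBI was 0.89 (SE 0.27, limma adjusted p = 0.0581). The r of Apol10a was 0.893 with Apol11a and 0.768 with Apol11b. Of the windows of Apol11a 5.79% recur in Apol10a, and of those of Apol11b 5.61%. The part of shared windows in this likeness was not tested. Apold1, an endothelial gene with an apolipoprotein L domain that lies outside the cluster, had 1.19 to 2.90 FPKM, with differences of 0.09 to 0.26 in the 4 comparisons between groups and no call. Apol7b and Apol7d stayed under 0.2 FPKM, and Apol7a was listed at 0.

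Of 17 genes in the table within 300000 bases of a member, leaving out the other family genes, 11 were tested. None of the 11 was called for injury in either age or for age without injury, and 1 of the 11 was called for age after injury, a share near the 9.9% of all genes called there. That was Gm8221, a pseudogene between Apol10b and Apol11b, at 0.71 (limma adjusted p = 0.0162), which shares 50-base windows with Apol7c and Apol7e. Myh9, the non-muscle myosin heavy chain gene 3584 bases from Apol8, had a mean of 269 FPKM and differences of -0.13 for age after injury and -0.35 for injury in aged mice (limma adjusted p = 0.445 and 0.114).

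Genes of other families that share the name, most of them for secreted apolipoproteins, were mostly low in marrow. Of 19 such genes and partners listed, 6 were tested, and 1 was called in 1 of the comparisons: Apoe, the lipid carrier of macrophages and plasma, was higher in Aged-TBI than in Young-TBI by 0.50 (limma adjusted p = 0.0375). The median of the 6 in that comparison was -0.03. Among the 6 were Apobr, a receptor, Apool and Apoo, which are no secreted apolipoproteins. They had 62.5 to 99.6, 7.86 to 12.2 and 1.10 to 2.14 FPKM. That median therefore does not describe secreted apolipoproteins alone.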

How the data were processed

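RNA of 12 bone marrow samples was extracted with TRIzol and sequenced after library preparation with a SMARTER kit, per the labels' protocols. The authors deposited FPKM per gene symbol. GRCm38, mm10 and R 4.3.3 are named in the submitters' processing notes. Neither the aligner and counter nor the annotation and strand setting is given in the sources used here. FPKM is relative, so abundant genes that rise lower the others.

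The steps of the FPKM values gave whole fragments (tolerance 0.05) for 24418 of 24421 entries, 12.3 to 15.9 M a sample. Groups were taken from the labels. The main test was limma 3.58.1 in R 4.3.3 on log2(FPKM + 1), with 1 mean per group, a variance trend and all 12 samples, for the 11767 genes that reached 1 FPKM in 3 samples or more, and was tested on simulated data. P-values were two-sided and adjusted by Benjamini-Hochberg over all tested genes. Voom on recovered fragments, other pseudocounts, filters, scalings, weights, covariates and left-out libraries were alternatives. All members were named; likeness was the 3 highest r among genes with a mean of at least 5 FPKM; up to 3 called genes were named per list, and a few genes that these rules name are not reported here. Members and lists were chosen with earlier results of these data known. Sequences were aligned with Biopython 1.88. GENCODE M21 gave coordinates.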

Additional observations from a re-analysis of the deposited data

How the results depend on the processing

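Apol11b, Apol11a and their sum were higher in Aged-TBI than in Young-TBI and past the threshold in all 27 alternatives run, with limma adjusted p-values up to 0.0275, 0.0258 and 0.0251. Each alternative drew on Young-TBI samples whose low Apol11 values led to the choice of the family, so these calls are not independent of it. For injury in aged mice, the count of members called was 0, and 1 (Apol8) with weights per sample or without both Young-CON 2 and Aged-CON 1; leaving out 1 library at a time gave 0 to 1. With weights and without both, 30.2% and 30% of all genes were called, against 0.323%. With 1 library left out, that share ran from 0.0935% to 27.7%. For age without injury the count was 0, 1 with weights (Apol11a), 2 without both of those libraries (Apol11a and Apol8) and 0 to 1 with 1 library left out; the shares of all genes were 21.3% with weights and 23.2% without both, against 4.98%. With 1 library left out, that share ran from 2.38% to 14.2%. For age after injury the count was 2 or 3. The share of all genes there ran from 1.12% (erythroid covariate) to 23.3% (weights), against 9.9%. The difference of Apol8 for age without injury turned from 0.04 to -0.30 with weights and to -0.53 without both libraries (limma adjusted p = 0.0170), and ran from -0.26 to 0.22 with 1 library left out. That of Apol11a for injury in aged mice turned to 0.39 with the erythroid covariate and ran from -0.65 to 0.21 with 1 library left out, and that of Apol7e for age after injury ran from -0.0098 to 0.22. Why these values turned was not tested. The deviations of same-numbered samples from their group means had correlations of -0.117 to 0.290. With 3 samples a group, these cannot settle whether the numbers pair the samples. With the replicate block the counts were 0, 0 and 3, and no call changed. The sum of Apol9a and Apol9b stayed under 1 FPKM and was not tested. With 0 to 15 fragments a sample, depth limits the 5 low members.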

Other observations

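The recovery of whole fragments, on which the counts of the low members rest, worked for all entries but 3, none of them a member, of which Kitl and Nlrp3 are given here. Their FPKM values were not whole multiples of a single step at the relative depths that served the other 24418 entries, and the cause was not tested. Kitl, the ligand of the stem cell receptor Kit, was listed at 19.6 to 32.0 FPKM in Young-CON, 54.9 to 72.0 in Young-TBI, 21.7 to 34.1 in Aged-CON and 94.4 to 121 in Aged-TBI. Nlrp3, an inflammasome sensor, was listed at 6.37 to 9.20, 9.35 to 21.3, 9.43 to 11.8 and 29.0 to 45.9 FPKM in the same order of groups. No result on the apolipoprotein L genes uses these 3 entries other than as 3 of the 11767 tested.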
